A study of Mus musculus with 6 samples.

Results

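The 9 genes described here encode the chemokine receptors by which subsets of helper T cells are usually told apart: Ccr2, Ccr4, Ccr6, Ccr7, Ccr8, Cxcr3, Cxcr4, Cxcr5 and Cxcr6. They were taken by gene symbol, 1 row each, out of the 54532 genes listed in a table of read counts and a matching table of FPKM values, and all 9 had enough reads to be tested. RNA was sequenced from T cells of the spleen, labelled CD4+, of wild type C57BL/6J mice kept free of specific pathogens. Akk stands for mice with colitis that were given the gut bacterium Akkermansia muciniphila daily (3 libraries), and Ctrl for mice with colitis that were given PBS daily (3 libraries). Colitis had been induced in both groups with dextran sulfate sodium (DSS), a chemical irritant of the colon, in the drinking water, so every library comes from a mouse treated with DSS. The sources used here do not give age, sex, the dose and length of either treatment or the way the cells were isolated.

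The labels disagree with themselves on the cells. The cell type entry is CD4+ T cells for all 6 libraries, but the free descriptions name CD5+ T cells for both libraries numbered 2 and CD6+ T cells for both numbered 3. The calls described here were therefore also made without both libraries numbered 2 and without both numbered 3, which leaves 2 libraries a group, and calls that were lost or gained are given with the results. The libraries held 15032257 to 16677923 counted reads, so that a count of 3 was worth between 0.181 and 0.2 CPM (counts scaled to the size of the library). The T cell label was checked against 15 T cell genes, whose levels summed to 7585 to 7922 CPM in Akk and 7000 to 7125 CPM in Ctrl, with none of them at 0. Genes of other cells were also detected in every library and are described with the results they accompany.

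Chemokine receptors are receptors of the cell surface that signal through inhibitory G proteins and steer migrating cells along gradients of chemokines, the ligands. Naive and central memory T cells use Ccr7 to enter the T cell zones of lymphoid organs, following Ccl19 and Ccl21a, and Cxcr4 answers to Cxcl12, a chemokine of bone marrow and many tissues. After activation, helper T cells acquire receptors that go with their subset and their destination. Cxcr3 marks type 1 helper cells, Ccr4 and Ccr8 type 2 and regulatory cells, Ccr6 type 17 cells, and Cxcr5 follicular helper cells. Cxcr6 binds Cxcl16 and is found on effector and tissue-resident T cells, on NKT cells and on innate lymphoid cells, while Ccr2 is carried by memory T cells and by monocytes.

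The windows around the start sites of Cxcr6, Ccr8 and Cxcr4, the 3 of the 9 receptors with the largest group differences described below, show what sequence precedes each of these genes and how its base composition differs. The windows are RefSeq's for mouse build GRCm38.p6, from 250 bases before to 50 bases after a start site, and 7 of the 9 receptors have one; Ccr7 and Cxcr5 are named only. Each is written 5′ to 3′ on the gene's own strand, with capitals for matches to any of 13 motifs: the Cxcr6 window is chr9:123806227-123806526 (plus strand), the Ccr8 window chr9:120091883-120092182 (plus strand) and the Cxcr4 window chr1:128592250-128592549 (minus strand).
Cxcr6: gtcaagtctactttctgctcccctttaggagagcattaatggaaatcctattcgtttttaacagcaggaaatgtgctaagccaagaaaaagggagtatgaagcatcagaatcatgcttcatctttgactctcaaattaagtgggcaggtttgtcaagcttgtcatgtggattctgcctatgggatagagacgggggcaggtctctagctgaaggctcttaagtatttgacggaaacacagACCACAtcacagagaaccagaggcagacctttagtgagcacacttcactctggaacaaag
Ccr8: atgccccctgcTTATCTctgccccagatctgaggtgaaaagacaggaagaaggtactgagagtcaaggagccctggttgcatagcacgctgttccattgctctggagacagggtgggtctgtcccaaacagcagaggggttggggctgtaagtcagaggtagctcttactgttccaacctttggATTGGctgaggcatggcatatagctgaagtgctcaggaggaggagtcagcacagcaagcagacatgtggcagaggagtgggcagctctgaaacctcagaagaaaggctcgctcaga
Cxcr4: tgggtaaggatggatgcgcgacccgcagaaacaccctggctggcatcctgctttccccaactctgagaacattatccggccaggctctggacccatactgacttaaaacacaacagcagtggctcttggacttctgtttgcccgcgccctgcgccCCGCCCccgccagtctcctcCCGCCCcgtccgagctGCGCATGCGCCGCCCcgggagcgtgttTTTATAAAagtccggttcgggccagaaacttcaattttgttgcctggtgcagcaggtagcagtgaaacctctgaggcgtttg
The Cxcr4 window was 59.3% G or C and held 20 CG dinucleotides, against 54.0% and 2 for Ccr8 and 44.3% and 3 for Cxcr6. Over all 32851 windows the medians were 52.7% and 7. In the Cxcr4 window the capitals mark 3 GC boxes (GGGCGG, here on the opposite strand as CCGCCC) at positions -95, -75 and -50 from the start site. They also mark a TATA box (TATAAA) at -30, which overlaps its own reverse match at -32, and an NRF1 core (GCGCATG) at -59, which overlaps its reverse match at -56; that reverse match shares 1 base with the GC box at -50. The Cxcr6 window held 1 match, the RUNX letters TGTGGT on the opposite strand at -10. In the Ccr8 window the matches were the GATA letters AGATAA at -239 and a CCAAT box (CCAAT) at -66, both on the opposite strand. Of all windows, 35.7% held the GC box, 13.6% the TATA box, 3.91% the NRF1 core, 16.8% the RUNX letters, 11.2% the GATA letters and 37.4% the CCAAT box. The other motifs searched on both strands had no match in these windows: E-box (CACGTG, in 7.15% of windows), CRE (TGACGTCA, 1.79%), AP-1 (TGANTCA, 7.81%), T-box (TCACACC, 3.98%), FOXO (GTAAACA, 3.65%), KLF (CCACACCC, 3.56%) and ETS (CCGGAAG, 8.86%). A match is a description of the letters and not a binding site.

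The receptor repertoire was dominated by Ccr7 and Cxcr4. FPKM, the authors' deposited read level scaled to gene length and library size, corrects for gene length and was used to compare receptors with each other. In Akk the mean FPKM was 162 ± 10.1 for Ccr7, 50.4 ± 16.6 for Cxcr4, 35.9 ± 7.44 for Cxcr3, 27.5 ± 4.32 for Cxcr6, 12.6 ± 1.57 for Cxcr5, 6.17 ± 0.965 for Ccr4, 5.92 ± 2.61 for Ccr2, 4.55 ± 0.612 for Ccr6 and 3.56 ± 0.210 for Ccr8 (SD, n = 3). In Ctrl it was 159 ± 14.6 for Ccr7, 127 ± 32.8 for Cxcr4, 31.5 ± 13.0 for Cxcr3, 10.1 ± 2.33 for Cxcr5, 9.61 ± 2.54 for Cxcr6, 6.19 ± 0.967 for Ccr8, 4.75 ± 1.25 for Ccr4, 3.72 ± 1.04 for Ccr6 and 3.57 ± 0.412 for Ccr2 (SD, n = 3). In both groups the order thus began with Ccr7, Cxcr4 and Cxcr3, and Ccr4, Ccr6, Ccr2 and Ccr8 were the lowest 4. Some neighbours in it overlapped over the libraries: Cxcr4 with Cxcr3, Cxcr3 with Cxcr6, and Ccr4, Ccr2 and Ccr6 with each other in Akk, and Ccr7 with Cxcr4 and all neighbours from Cxcr5 down to Ccr2 in Ctrl. Ccr7 lay at the 98.5th percentile of mean FPKM among the 15138 genes tested, Cxcr4 at 97.0, and Ccr6, the lowest, at 45.0.

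Expressed as shares of the 9 receptors' summed FPKM, the groups did not overlap for 7 of the 9 receptors, all but Ccr7 and Cxcr3. Cxcr4 made up 20.1, 16.1 and 12.3% in Akk, against 41.1, 28.7 and 36.4% in Ctrl. Cxcr6 made up 9.28, 8.11 and 9.26% in Akk, against 2.79, 3.50 and 1.89% in Ctrl. Ccr2, Ccr4, Ccr6 and Cxcr5 also took larger shares in every Akk library than in any Ctrl library, and Ccr8 smaller ones, each of these within 0.865 to 4.22% of the sum. Shares of a common sum are not independent of each other. In CPM the groups overlapped for Ccr4, Ccr6 and Cxcr5, so their larger shares do not show a difference in level. The groups did not overlap in CPM for 4 of the 9 receptors (44.4%), against 34.9% of all genes tested. Ccr7 held 52.8 ± 6.03% in Akk and 45.0 ± 6.60% in Ctrl (SD, n = 3 each) and ranked first in every library except Ctrl 1, where Cxcr4, at 158.7 FPKM, stood above Ccr7, at 144.5 FPKM. Cxcr3 ranked as the third in all 6 libraries. Ccr8 was the lowest of the 9 in every Akk library and sixth or seventh in the Ctrl libraries. The sum over the 9 receptors was 309 ± 30.1 FPKM in Akk and 355 ± 30.8 FPKM in Ctrl (SD, n = 3 each), with ranges that overlapped.

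**Figure D1:**
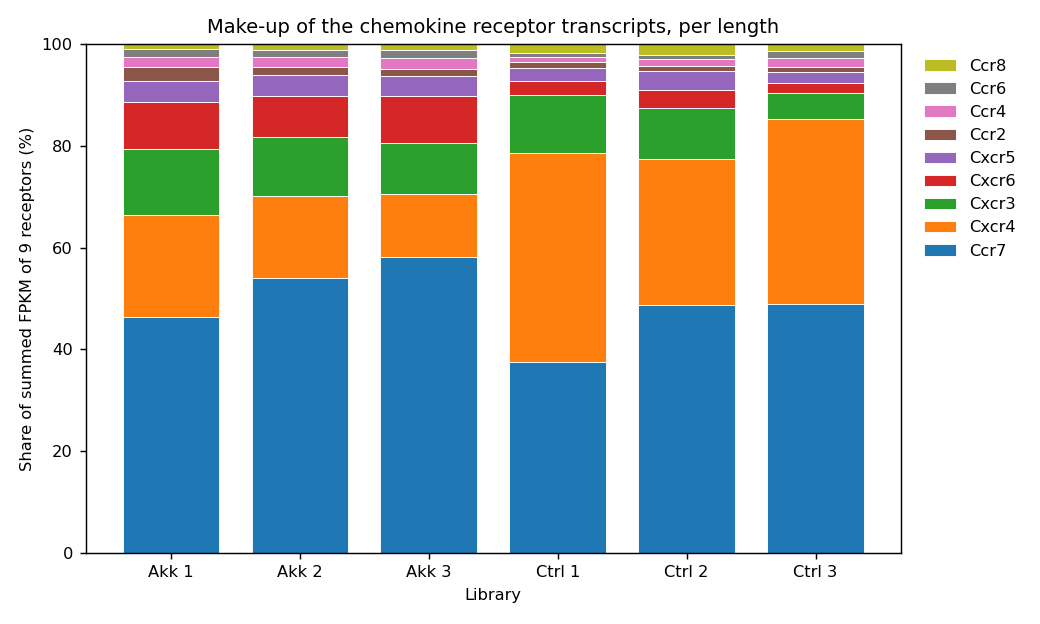
Share of each receptor in the summed FPKM of the 9 receptors (y axis, percent) in each of the 6 libraries (x axis, Akk left of Ctrl). The orange block (Cxcr4) takes 12.3 to 20.1% in Akk and 28.7 to 41.1% in Ctrl, and the red block (Cxcr6) 8.11 to 9.28% in Akk and 1.89 to 3.50% in Ctrl.

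To compare the same receptor between groups, counts were tested with edgeR's quasi-likelihood F test, 2-sided, with p-values adjusted by Benjamini-Hochberg over the 15138 genes with enough reads, and calls made under 0.05. Levels are given in CPM, and differences as log2 fold changes of Akk over Ctrl with their standard errors (SE). With Akk, 1 of the 9 receptors was higher (11.1%), against 7.32% of all genes tested, and 1 was lower (11.1%), against 8.28% of all genes tested. These shares are close to the background. The counts given below for other lists of genes are to be set against the same 7.32% higher and 8.28% lower. The CPM ranges of the groups did not overlap for 4 of the 9 receptors (44.4%), against 34.9% of all genes tested. The median log2 fold change was 0.28 over the 9 receptors and -0.01 over all genes. It was above 0 for 7 of the 9 receptors, of which only Cxcr6 passed, and for 7416 of the 15138 genes tested. In RNA from bulk cells, a change in the number of cells of a type and a change in RNA per cell cannot be told apart.

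**Figure D2:**
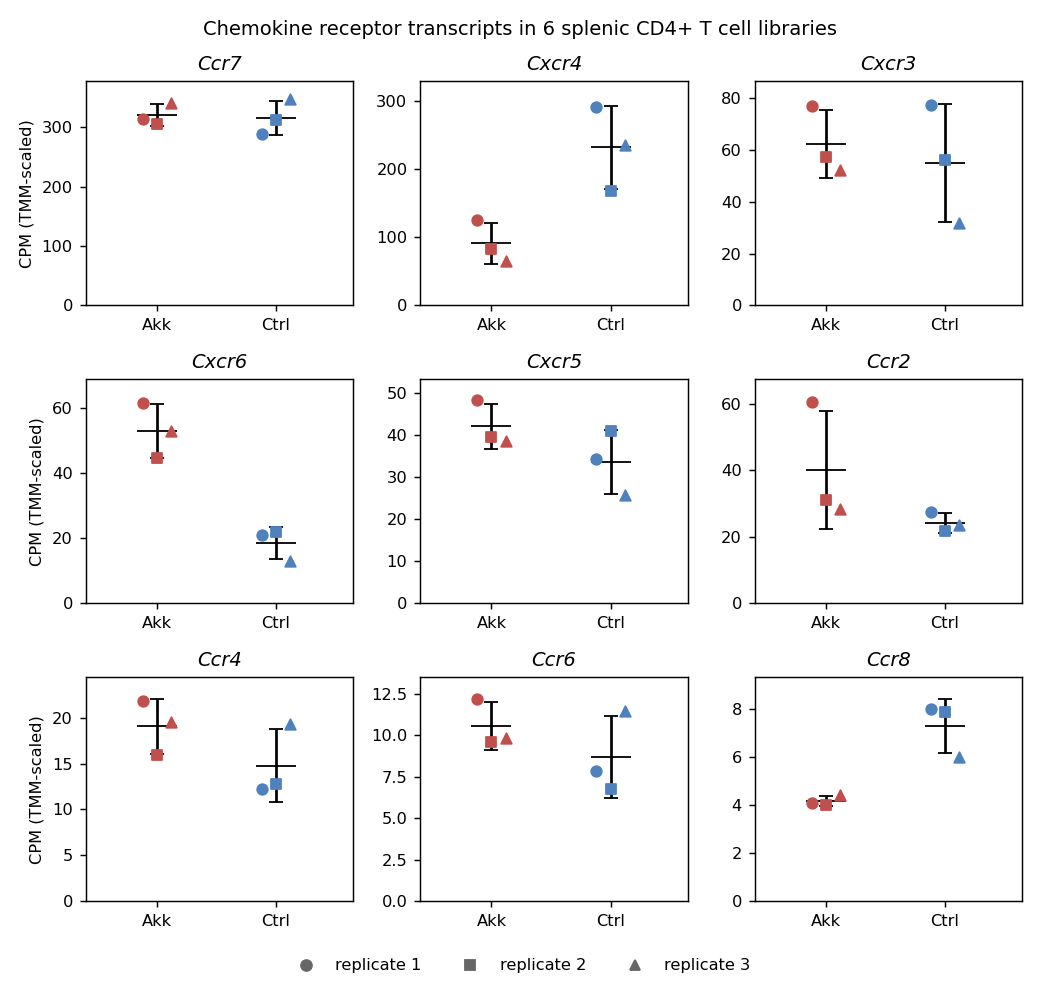
Level of each of the 9 receptors in CPM (y axis, from 0) in the Akk libraries (red, left) and the Ctrl libraries (blue, right), with the replicate number as marker shape, and the group mean and SD as lines (n = 3 each). The groups do not overlap for Cxcr4, Cxcr6, Ccr2 and Ccr8, while for Ccr7 both groups sit near 300 CPM, with means of 319.9 CPM in Akk and 315.9 CPM in Ctrl.

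Cxcr6, the receptor of effector and tissue-resident T cells, rose with Akk. Its level was 61.5, 44.7 and 53.0 CPM in Akk, against 21.0, 21.9 and 13.1 CPM in Ctrl. Every Akk library lay above every Ctrl library, and the gap between the groups was wider than the SD of either. The means were 53.1 ± 8.37 CPM in Akk and 18.6 ± 4.86 CPM in Ctrl (SD, n = 3 each), a log2 fold change of 1.51 ± 0.20 (SE), or 2.85-fold, with an adjusted p of 0.00274 by edgeR. The call held in all 17 other settings tried, with log2 fold changes between 1.30 and 1.75 and adjusted p up to 0.0161. Cxcr6 overlaps Fyco1, a gene of vesicle transport, on the opposite strand. Only whole gene spans were compared, and no source used here says whether counting used strand. The Cxcr6 value may therefore hold reads of Fyco1. Fyco1 had 85.0 CPM in Akk and 73.7 CPM in Ctrl, a log2 fold change of 0.21 ± 0.09 that did not pass (adjusted p = 0.142 by edgeR).

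Cell types besides CD4+ T cells also carry Cxcr6, and markers of some of them were higher with Akk. The CD8 T cell markers Cd8a and Cd8b1, the chains of the CD8 coreceptor, summed to 61.3 to 93.4 CPM in Akk and 19.1 to 20.2 CPM in Ctrl, and both passed the test (log2 fold change 2.23 ± 0.21, adjusted p = 0.000252 for Cd8a, and 1.60 ± 0.16, adjusted p = 9.1e-05 for Cd8b1, by edgeR). For comparison, Cd4 averaged 884 ± 29.6 CPM in Akk and 688 ± 31.9 CPM in Ctrl (SD, n = 3 each). Of 11 NK cell markers, 7 rose and none fell, with sums of 136 to 147 CPM in Akk and 81.4 to 90.0 CPM in Ctrl. The count that rose was 6 without Akk 1, Akk 3 or both libraries numbered 3, and 8 without Ctrl 2. Klrb1c and Fcer1g had log2 fold changes below 0 (-0.15, adjusted p = 0.743, and -0.13, adjusted p = 0.617, by edgeR). The 7 that rose include Prf1, which encodes perforin, with 43.4 ± 7.86 CPM in Akk and 20.4 ± 2.66 CPM in Ctrl, and Gzma, which encodes granzyme A, with 22.1 ± 2.63 CPM in Akk and 5.81 ± 2.47 CPM in Ctrl (SD, n = 3 each). Both genes are also expressed by cytotoxic T cells. The part of these cells in the Cxcr6 result was not tested.

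Ccr8, a receptor of type 2 and regulatory T cells, fell with Akk and ranked last of the 9 by FPKM in the Akk libraries, though not in the Ctrl libraries. Its level was 4.11, 4.004 and 4.44 CPM in Akk, against 8.03, 7.88 and 6.01 CPM in Ctrl, from raw counts of 65, 60 and 67 in Akk and 133, 120 and 98 in Ctrl. All Akk libraries lay below all Ctrl libraries, and the Akk libraries were close together. The means were 4.18 ± 0.226 CPM in Akk and 7.31 ± 1.13 CPM in Ctrl (SD, n = 3 each), a log2 fold change of -0.80 ± 0.20 (SE) with an adjusted p of 0.0186 by edgeR. The call was lost without Akk 1 (adjusted p = 0.0645), Akk 2 (0.0769), Akk 3 (0.0557) or Ctrl 1 (0.0731), and without both libraries numbered 2 (0.109). In all 17 other settings it stayed between -0.97 and -0.65. Foxp3, which defines regulatory T cells, had 99.2 ± 15.1 CPM in Akk and 86.8 ± 10.2 CPM in Ctrl (adjusted p = 0.328), and Gata3, which defines type 2 cells, 77.4 ± 7.52 CPM in Akk and 72.8 ± 7.83 CPM in Ctrl (SD, n = 3 each; adjusted p = 0.581 by edgeR).

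Cxcr4, the Cxcl12 receptor, differed by more on the log2 scale than Ccr8 but varied more between libraries. Its level was 124.6, 83.0 and 65.8 CPM in Akk, against 290.4, 168.1 and 235.6 CPM in Ctrl. Every Akk library lay below every Ctrl library. The means were 91.1 ± 30.2 CPM in Akk and 231.4 ± 61.3 CPM in Ctrl (SD, n = 3 each), a log2 fold change of -1.34 ± 0.34 (SE), which did not pass the threshold (adjusted p = 0.0754 by edgeR, unadjusted p = 0.0145). It passed in 5 of 17 other settings: DESeq2 (adjusted p = 0.00195), limma on log2(FPKM + 1) (0.0354) and on log2(FPKM + 0.1) (0.0386), the fit with the replicate number as a block (0.0122), and without Akk 1 (0.0455). Over all 17 the log2 fold change lay between -1.63 and -1.15. The call for Cxcr4 thus depended on the test and on Akk 1.

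**Figure D3:**
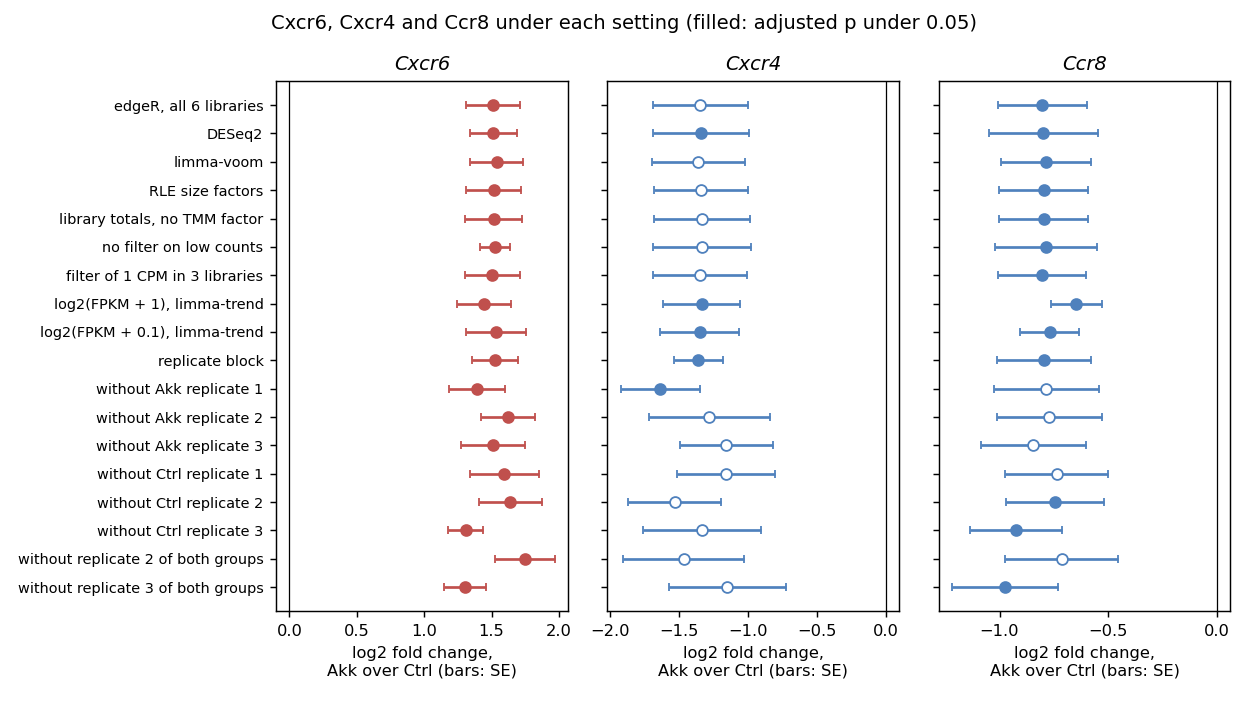
Log2 fold change of Akk over Ctrl (x axis, bars are SE) for Cxcr6, Cxcr4 and Ccr8 under the test used here and 17 other settings (y axis), with filled points for an adjusted p under 0.05. Cxcr6 is filled throughout, Ccr8 in 12 of the other settings and Cxcr4 in 5 of them, and no value changes sign.

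Ccr7, the homing receptor of naive and central memory T cells, was the most abundant receptor and did not pass the test. Its level was 314.0, 304.9 and 340.8 CPM in Akk, against 289.2, 311.8 and 346.8 CPM in Ctrl. The groups overlapped, and the highest and lowest of the 6 values were both Ctrl libraries. The log2 fold change was 0.02 ± 0.08 (SE; adjusted p = 0.909 by edgeR), which turned to -0.028 without Akk 3 and to -0.049 without Ctrl 1. Of 8 genes of naive and recirculating T cells, Klf2, a transcription factor of quiescence and egress, rose to 605 ± 25.8 CPM in Akk, against 408 ± 39.8 CPM in Ctrl (SD, n = 3 each; log2 fold change 0.57 ± 0.08, adjusted p = 0.000634 by edgeR). Il7r, which encodes the receptor of the survival cytokine IL-7, fell to 496 ± 61.6 CPM in Akk, against 717 ± 111 CPM in Ctrl (log2 fold change -0.53 ± 0.12, adjusted p = 0.0161 by edgeR), a call lost without Akk 1 or Akk 2 (adjusted p up to 0.0671). The other 6, among them S1pr1, the receptor for egress from lymphoid organs, and Tcf7, did not pass.

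Cxcr3, the receptor of type 1 helper cells for Cxcl9 and Cxcl10, was the most variable of the 9 in Ctrl. It had 76.8, 57.1 and 52.1 CPM in Akk, against 77.2, 55.9 and 31.7 CPM in Ctrl. The groups overlapped almost wholly, since Ctrl 1 was the highest library and Ctrl 3 the lowest. The log2 fold change was 0.18 ± 0.38 (SE; adjusted p = 0.815 by edgeR), and it turned below 0 without Akk 1 (-0.0035) and without Ctrl 3 (-0.10). Without both libraries numbered 3 it was 0.0055. Tbx21, which encodes the type 1 regulator T-bet, had 28.6 ± 3.80 CPM in Akk and 22.2 ± 11.8 CPM in Ctrl (SD, n = 3 each; log2 fold change 0.37, adjusted p = 0.643 by edgeR). Without Ctrl 1 it was called higher (0.85, adjusted p = 0.047).

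Ccr2, the receptor of memory T cells and monocytes for Ccl2, did not pass although the groups did not overlap. It had 60.5, 31.2 and 28.4 CPM in Akk, against 27.5, 21.8 and 23.4 CPM in Ctrl. Akk 1 stood well above the other 5 libraries, and the lowest Akk value was only just above the highest Ctrl value. Its log2 fold change was 0.72 ± 0.34 (SE; adjusted p = 0.236 by edgeR), and 0.30 without Akk 1 (adjusted p = 0.185). It passed only with the replicate number as a block (0.65, adjusted p = 0.0182). Monocyte and macrophage markers summed to 556 to 608 CPM in Akk and 496 to 553 CPM in Ctrl, with 2 of 12 higher (1 without Akk 2, Akk 3 or Ctrl 3, and 4 without Ctrl 2), none lower and none at 0. The 2 were Lyz2, which encodes lysozyme, with 85.6 ± 11.2 CPM in Akk and 39.8 ± 5.70 CPM in Ctrl (SD, n = 3 each; adjusted p = 0.000197 by edgeR), and Itgam, which encodes CD11b, a call lost without both libraries numbered 2 or both numbered 3 (adjusted p up to 0.122). Of the 12 log2 fold changes 6 were above 0, with a median of 0.017. The part of these cells in the Ccr2 levels was not tested. Reads of Ccr2 that also fit a related gene may have been split or dropped in counting, so its value is uncertain to that extent.

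Ccr4, a receptor of type 2 and regulatory T cells, had 21.8, 15.9 and 19.5 CPM in Akk, against 12.3, 12.7 and 19.3 CPM in Ctrl. Ctrl 3 lay among the Akk libraries and the other Ctrl libraries lay below them. The log2 fold change was 0.37 ± 0.18 (SE; adjusted p = 0.208 by edgeR), and without Ctrl 3 it was 0.61 and passed (adjusted p = 0.021). Without both libraries numbered 3 it was 0.59 and did not pass (adjusted p = 0.0752). Ccr6, the receptor of type 17 cells for Ccl20, had 12.2, 9.61 and 9.80 CPM in Akk, against 7.85, 6.76 and 11.5 CPM in Ctrl. Here too Ctrl 3 lay within the Akk range, and the log2 fold change of 0.28 ± 0.20 (SE; adjusted p = 0.397 by edgeR) passed in none of the 17 other settings; it reached 0.57 without both libraries numbered 3 (adjusted p = 0.126).

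Cxcr5, the receptor of follicular helper T cells and of B cells for Cxcl13, had 48.2, 39.4 and 38.5 CPM in Akk, against 34.2, 41.0 and 25.8 CPM in Ctrl. Ctrl 2 lay among the Akk libraries, so the groups overlapped. The log2 fold change was 0.32 ± 0.16 (SE; adjusted p = 0.213 by edgeR), and it passed without Ctrl 2 (0.49, adjusted p = 0.0347) and with no filter on low counts (0.34, adjusted p = 0.0163). Without both libraries numbered 2 it was 0.53 and did not pass (adjusted p = 0.0697). Bcl6, which encodes the follicular helper regulator, had 38.0 ± 0.273 CPM in Akk and 36.0 ± 3.58 CPM in Ctrl (SD, n = 3 each; adjusted p = 0.628 by edgeR). B cells also express Cxcr5 and Ccr6, and all 16 B cell markers were higher with Akk (14 to 16 with any 1 library left out, 14 without both numbered 2 and 13 without both numbered 3), with sums of 1335 to 1524 CPM in Akk and 916 to 942 CPM in Ctrl. Cd22, an inhibitory receptor found on B cells, had 79.2 ± 7.08 CPM in Akk and 36.4 ± 3.93 CPM in Ctrl (SD, n = 3 each). The part of B cells in the Cxcr5 and Ccr6 levels was not tested. Cxcr5 also overlaps Bcl9l, a gene of Wnt signalling, on the opposite strand, and Bcl9l rose to 302 CPM in Akk, against 201 CPM in Ctrl (log2 fold change 0.59 ± 0.09, adjusted p = 0.00164 by edgeR), so with the strand setting not given here the Cxcr5 value may hold reads of Bcl9l.

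**Figure D4:**
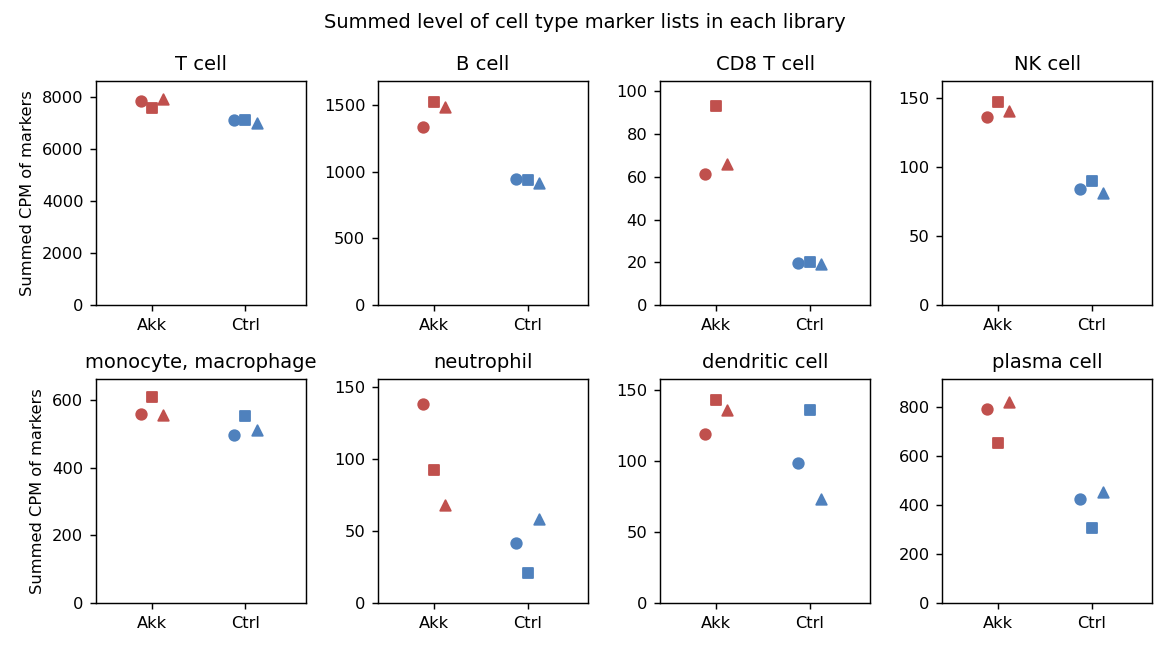
Summed CPM of 8 lists of cell type markers (y axes, each from 0) in the Akk libraries (red, left) and the Ctrl libraries (blue, right), with the replicate number as marker shape (circle 1, square 2, triangle 3). The Akk libraries lie above all Ctrl libraries in every panel except dendritic cells, where Ctrl 2, at 136 CPM, lies within the Akk range of 119 to 143 CPM.

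The remaining marker lists moved less uniformly. Of the 15 T cell genes 6 rose (3 without Akk 3 or Ctrl 1, and 2 without both libraries numbered 3) and 1 fell. Cd4 rose by 0.36 on the log2 scale (adjusted p = 0.00428 by edgeR; 0.0581 without both numbered 3). Cd28, the costimulatory receptor of T cells, fell to 325 ± 33.0 CPM in Akk, against 595 ± 97.1 CPM in Ctrl (SD, n = 3 each; log2 fold change -0.87 ± 0.12, adjusted p = 0.00163 by edgeR). Of 7 neutrophil markers tested, 2 rose, Camp and Csf3r, with sums of 68.0 to 139 CPM in Akk and 20.9 to 58.6 CPM in Ctrl. Their log2 fold changes were above 0 for 6 of the 7. Retnlg went the other way (log2 fold change -0.92, adjusted p = 0.363 by edgeR). It was called lower without Ctrl 2 (adjusted p = 0.00777) and without both libraries numbered 2 (0.0359). Of 10 dendritic cell markers tested, 3 rose, Itgax, Siglech and Zbtb46 (1 without Akk 1, Akk 3, Ctrl 1, Ctrl 3 or both numbered 3), and of 7 plasma cell markers tested, none rose and 3 fell. The count lower was 1 without any 1 Akk library, Ctrl 1 or both numbered 2, and 2 were called higher without Ctrl 2 or both numbered 2, and 1 without Ctrl 3. The 3 plasma cell markers that fell were Xbp1, Irf4 and Prdm1, regulators that activated T cells also express, whereas Igha, the constant part of IgA, had 461 ± 75.1 CPM in Akk and 112 ± 55.9 CPM in Ctrl (SD, n = 3 each) and did not pass (adjusted p = 0.0568 by edgeR). Igha was called higher by DESeq2 (adjusted p = 7.1e-05) and limma-voom (0.0453), and by edgeR without Ctrl 2, Ctrl 3 or both libraries numbered 2, and Jchain, which joins IgA and IgM chains, by DESeq2 (0.0396) and by edgeR without Ctrl 2 or both numbered 2.

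Of 14 other chemokine receptors, 11 had enough reads to be tested. Among these 11, 1 rose and 1 fell, against 7.32% of all genes tested higher and 8.28% lower. Both calls were lost when single libraries were left out. Ccr3, the eotaxin receptor of eosinophils and some type 2 cells, had 19.4, 20.8 and 20.2 CPM in Akk, against 7.85, 16.0 and 8.40 CPM in Ctrl. Its log2 fold change was 0.91 ± 0.24 (SE; adjusted p = 0.0358 by edgeR), a call lost without any 1 library other than Ctrl 2 (adjusted p up to 0.112) and without both numbered 3 (0.209). Ccrl2, which binds the chemoattractant chemerin without signalling through G proteins, had 7.53, 7.34 and 7.42 CPM in Akk, against 13.7, 20.9 and 9.57 CPM in Ctrl. Its log2 fold change was -0.98 ± 0.25 (SE; adjusted p = 0.0235 by edgeR), lost without any 1 Akk library or Ctrl 1 (adjusted p up to 0.0948) or without both libraries numbered 2 (0.0929), and -0.65 without Ctrl 2. For both genes the groups did not overlap.

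Several further receptors missed the threshold. Cx3cr1, the fractalkine receptor of cytotoxic T cells, NK cells and monocytes, had 17.4, 12.9 and 8.61 CPM in Akk, against 6.64, 4.40 and 2.15 CPM in Ctrl. Its groups did not overlap, and the log2 fold change was 1.56 ± 0.42 (SE; adjusted p = 0.0505 by edgeR). Ccr9, the gut homing receptor, had 21.4, 14.4 and 27.6 CPM in Akk, against 11.3, 15.4 and 9.01 CPM in Ctrl (log2 fold change 0.83 ± 0.27, adjusted p = 0.0783 by edgeR). Both passed with DESeq2 (adjusted p = 2.7e-05 for Cx3cr1 and 0.00368 for Ccr9). With limma-voom Cx3cr1 passed (0.0465) and Ccr9 did not (0.0914). In edgeR, Cx3cr1 was called without Akk 3, Ctrl 1, Ctrl 3 or both numbered 3, and Ccr9 without Akk 2, Ctrl 2 or both numbered 2. Ackr2, a scavenger receptor of inflammatory chemokines, had 1.29 ± 0.306 CPM in Akk and 0.290 ± 0.347 CPM in Ctrl (SD, n = 3 each; log2 fold change 2.12 ± 0.72, adjusted p = 0.0687 by edgeR). Its groups did not overlap, and it was called higher by DESeq2 (adjusted p = 0.0417) and limma-voom (0.0337), and by edgeR without Ctrl 3 (0.0131) or both numbered 3 (0.044). Xcr1, Cxcr2, Ccr10, Cxcr1 and Ccr1 averaged under 3 CPM in both groups and did not pass.

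Transcripts of the ligands were scarce in these cells. Of 16 ligands of the 9 receptors, 3 had enough reads to be tested, 5 were at 0 in every library (Ccl7, Ccl8, Ccl12, Ccl19 and Ccl21a), and the other 8 fell below the filter. The symbols Ccl19 and Ccl21a each have 2 rows, of which only 1 was read here. The other row of each was not checked, so the level of 0 holds only for the row read. Cxcl10, the interferon-induced ligand of Cxcr3, had 6.20, 7.54 and 6.03 CPM in Akk, against 21.1, 25.0 and 9.20 CPM in Ctrl. The groups did not overlap, and the log2 fold change was -1.48 ± 0.37 (SE; adjusted p = 0.0423 by edgeR). The call was lost without any 1 library other than Ctrl 3 (adjusted p up to 0.163), without both numbered 2 (0.132) and with limma-voom (0.149). Cxcl9, the other interferon-induced ligand of Cxcr3, had 2.46 ± 0.296 CPM in Akk and 1.67 ± 0.837 CPM in Ctrl (adjusted p = 0.338), and Cxcl16, the ligand of Cxcr6, 1.80 ± 0.661 CPM in Akk and 2.12 ± 0.855 CPM in Ctrl (SD, n = 3 each; adjusted p = 0.746 by edgeR).

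Of 34 genes that act downstream of chemokine receptors, all were tested. Among them 8 rose and 2 fell, against 7.32% of all genes tested higher and 8.28% lower. The counts were 6 to 11 and 1 to 2 with any 1 library left out. They were 6 and 1 without both numbered 2, and 8 and 2 without both numbered 3. The median log2 fold change was 0.15, against -0.01 over all genes. Tln1, which encodes talin, the protein that switches on integrins, had 1406 ± 58.2 CPM in Akk and 1022 ± 32.9 CPM in Ctrl (log2 fold change 0.46 ± 0.07, adjusted p = 0.000998 by edgeR). Itgal, the alpha chain of the integrin LFA-1, had 1062 ± 71.8 CPM in Akk and 793 ± 20.2 CPM in Ctrl (0.42 ± 0.07, adjusted p = 0.00222 by edgeR). These are steps by which a chemokine signal arrests a rolling T cell on the vessel wall. The G protein subunit gene Gnb2 rose as well, to 231.5 ± 0.502 CPM in Akk, against 184 ± 7.97 CPM in Ctrl (0.33 ± 0.07, adjusted p = 0.00502 by edgeR). Rap1b, the small GTPase that relays the signal to talin, fell to 517 ± 15.9 CPM in Akk, against 718 ± 67.1 CPM in Ctrl (-0.47 ± 0.08, adjusted p = 0.00171 by edgeR). Its close relative Rap1a fell to 131 ± 5.005 CPM in Akk, against 159.8 ± 13.9 CPM in Ctrl (-0.28 ± 0.08, adjusted p = 0.0253 by edgeR), a call lost without any 1 Akk library, Ctrl 1 or both numbered 2 (adjusted p up to 0.122). Gnai2, the main inhibitory G protein subunit of lymphocytes, had 693 ± 17.4 CPM in Akk and 626 ± 14.3 CPM in Ctrl and did not pass (SD, n = 3 each in all of these; adjusted p = 0.153 by edgeR).

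The RGS proteins shorten G protein signals, and 1 of 8 RGS genes rose while 1 fell. Of all genes tested, 7.32% were higher and 8.28% lower. Rgs2 fell to 160.1 ± 17.2 CPM in Akk, against 284 ± 32.8 CPM in Ctrl (SD, n = 3 each; log2 fold change -0.83 ± 0.10, adjusted p = 0.000322 by edgeR). Rgs14 rose to 164 ± 6.40 CPM in Akk, against 126 ± 20.2 CPM in Ctrl (0.38 ± 0.10, adjusted p = 0.027 by edgeR), a call lost without any 1 Akk library or Ctrl 1 (adjusted p up to 0.107) and without both numbered 2 (0.132). Rgs1, which dampens chemokine responses in lymphocytes, had 95.3 ± 17.7 CPM in Akk and 134 ± 19.7 CPM in Ctrl and did not pass (SD, n = 3 each; adjusted p = 0.0688 by edgeR). Its groups did not overlap, and it was called lower by DESeq2 (adjusted p = 0.00302) and by edgeR without Akk 1 (0.0126). Rgs16 did not pass either (log2 fold change -0.58, adjusted p = 0.0792 by edgeR). It was called lower by DESeq2 (0.0173) and by edgeR without Ctrl 2 (0.00561) or both numbered 2 (0.0274). The count of RGS genes lower was thus 2 without Akk 1 (with Rgs1), and without Ctrl 2 or both numbered 2 (with Rgs16). Of 10 regulators of helper T cell lineages, 1 fell: Prdm1, which encodes Blimp-1, had 16.6 ± 1.31 CPM in Akk and 25.0 ± 6.24 CPM in Ctrl (SD, n = 3 each; log2 fold change -0.59 ± 0.17, adjusted p = 0.0325 by edgeR). That call was lost without any 1 library other than Ctrl 3 (adjusted p up to 0.130) and without both libraries numbered 2 (0.196).

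**Figure D5:**
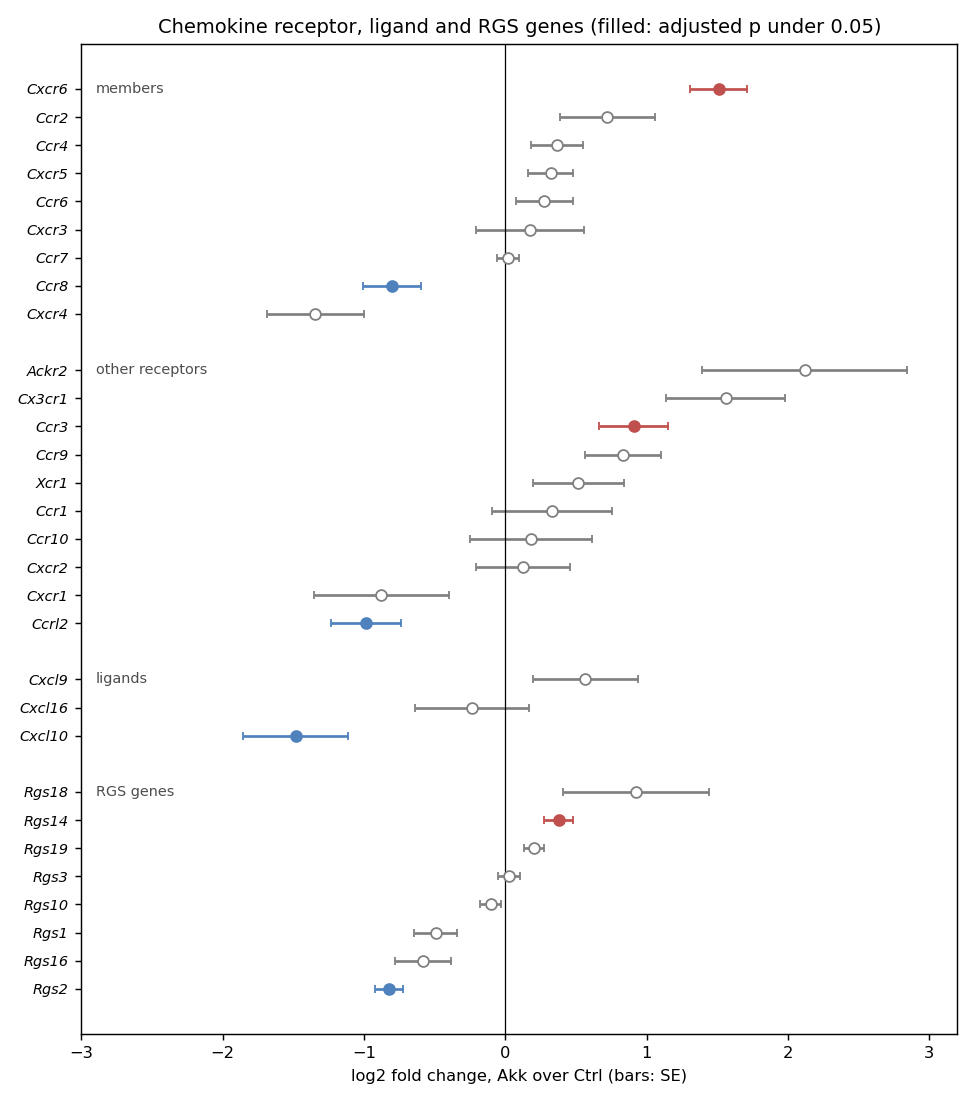
Log2 fold change of Akk over Ctrl (x axis, bars are SE) for the 9 receptors, 10 other chemokine receptors tested, the 3 ligands tested and the 8 RGS genes (y axis), with filled points for an adjusted p under 0.05 by edgeR. Cxcr6, Ccr3 and Rgs14 are filled and above 0, and Ccr8, Ccrl2, Cxcl10 and Rgs2 are filled and below 0.

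For each receptor the genes of nearest pattern over the 6 libraries were looked up among 8493 genes with a mean of at least 10 CPM, by the root mean square difference of log2 CPM centred on each gene's mean. This is a description that rests on 6 libraries. Nearest to Cxcr6 were Fgl2 (difference 0.26), a fibrinogen-like protein secreted by T cells and macrophages, and Zfp683 (0.27), which encodes Hobit, a regulator of tissue-resident lymphocytes. Zfp683 had 16.2, 13.7 and 15.3 CPM in Akk, against 8.34, 5.51 and 5.27 CPM in Ctrl. Nearest to Cxcr4 were Nr4a2 (0.16), an early response gene of T cell receptor signalling, and Ctla4 (0.18), the inhibitory receptor of activated and regulatory T cells. Ctla4 had 217, 142 and 126 CPM in Akk, against 388, 260.3 and 323 CPM in Ctrl, and did not pass (adjusted p = 0.0824 by edgeR). It was called lower by DESeq2 (adjusted p = 0.00812) and by edgeR without Akk 1 (0.00482). Nr4a2 passed (adjusted p = 0.0361 by edgeR), but the call was lost without Akk 1, Akk 2, Ctrl 1 or Ctrl 3 (adjusted p up to 0.115). It was also lost without both libraries numbered 2 (0.051) and both numbered 3 (0.0964). Nearest to Ccr7 was Tcf7 (0.02), the transcription factor of naive T cells. The same look-up gave Gtf2f2 and Etaa1 for Ccr8 (both 0.08), Gimap4 (0.07) and Dcp2 (0.10) for Cxcr5, Myo1f and Baiap3 for Cxcr3 (both 0.15), Nacad (0.23) and Cdc25b (0.24) for Ccr2, Pdlim7 (0.09) and Tyro3 (0.10) for Ccr4, Fuk (0.07) and Tbx6 (0.08) for Ccr6, and Med1 (0.03) for Ccr7.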

How the data were processed

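The authors' deposited tables give whole-number read counts per gene and FPKM values per gene, and the libraries were made from total RNA by poly(A) selection, per the labels' protocols. Reads were placed on GRCm39, per the submitters' processing notes; no source used here names the aligner, counter, annotation or strand setting. From the counts, genes were kept by edgeR's filterByExpr (minimum count 10, minimum total 15), which left 15138 of 28006 genes with a count. TMM scaling and the quasi-likelihood F test (robust; edgeR 4.0.16, R 4.3.3) compared 3 Akk with 3 Ctrl libraries, p-values being adjusted over all of them by Benjamini-Hochberg. CPM are counts over TMM-scaled library sizes, and an SE is the log2 fold change over the square root of F. Deposited FPKM served for levels between genes. The calling code was tested on simulated data.

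Alternatives were DESeq2 1.42.0, limma 3.58.1 (voom, and log2(FPKM + 1) or log2(FPKM + 0.1)), other scalings and filters, a replicate block and leaving libraries out. Named genes were all 9 receptors, and of the receptor, ligand, signalling, RGS, lineage and naive T cell lists those past the threshold, up to 4 by smallest p. Receptors and ligands with a mean of at least 1 CPM were named whether or not they passed. Of the marker lists the rule was the summed level and up to 3 genes of highest level, not all of which are named. Other genes named, among them Rap1a, Ackr2, Gzma, Cd28 and lineage genes set beside a receptor, were chosen after their values were seen. A few genes of these lists are not reported here. The receptors and all lists were chosen with earlier results of these data known. Overlapping genes were read from GENCODE M21, without coordinates, and start-site windows from RefSeq's GRCm38.p6 table. The labels speak of biological replicates without naming the animals, so p-values measure the spread between these libraries. No library duplicated another: replicates differed by a chi-square per gene of 4.25 to 5.77 in Akk and 13.2 to 17.8 in Ctrl. Figures were drawn with matplotlib 3.10.9 in Python 3.11.15.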

Additional observations from a re-analysis of the deposited data

How the results depend on the processing

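Cxcr6 kept its direction and its call under every alternative, while the number of receptors called lower changed with single libraries. edgeR called 0 to 1 receptors lower and 1 to 2 higher with any 1 library left out, and 519 to 1287 genes higher and 623 to 1413 lower over the whole table. The count of 0 occurred without Akk 2, Akk 3 or Ctrl 1, where 1 to 2 receptors were lower at an unadjusted p under 0.05; the receptor called without Akk 1 was Cxcr4 and not Ccr8. DESeq2, both fits on log2 FPKM and the replicate block called 2 receptors lower, Ccr8 and Cxcr4. With no filter on low counts 2 receptors were called higher, Cxcr6 and Cxcr5, and with the replicate block 2, Cxcr6 and Ccr2. Without both libraries numbered 2, an alternative chosen after seeing the data, 609 genes were higher and 923 lower. In that setting edgeR called 0 receptors lower (1 at an unadjusted p under 0.05). Without both numbered 3, chosen likewise, 695 genes were higher and 693 lower. The fits on log2 FPKM called 798 genes higher with a pseudocount of 1 and 774 with 0.1, and 850 and 840 lower. With any 1 library left out, the log2 fold change ran between -0.10 and 0.49 for Cxcr3 and between -0.049 and 0.091 for Ccr7. Same-numbered libraries deviated from their group means with correlations of 0.078, 0.072 and 0.025, and each correlated best with its own number. Such low correlations over all genes do not settle whether the libraries were paired. The main test did not pair them. With the block 1205 genes were higher and 1333 lower. The cause of these changes was not tested. Counts of 60 to 133 reads limit the precision for Ccr8.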
